A study of Mus musculus with 12 samples.

Results

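The 9 genes described here encode the chemokine receptors Ccr2, Ccr4, Ccr6, Ccr8, Ccr9, Cxcr3, Cxcr4, Cxcr5 and Cx3cr1, which effector CD4+ T cells use to reach tissues. They were found by their symbols among the 55414 gene records of the count table, and each was read by its Ensembl gene identifier. RNA of CD4+ T cells purified from the spleens of male wild-type BALB/c mice aged 18 weeks was sequenced in 12 libraries. In the LIP group, silk ligatures around the second upper molars had induced periodontitis for 14 days, and the mice of the CTL group were anesthetized but received no ligature. In each group, 3 libraries were made on day 0, from uncultured cells taken right after purification, and 3 on day 2, from cells cultured for 2 days with IL-2 on wells coated with antibodies to TCRβ and CD28. The dose of IL-2 is 2.5 ng/ml in the methods of the study and 10 ng/ml in the labels, and that of the TCRβ antibody is 3 µg/ml and 1 µg/ml. Where the culture protocol has CD28 for every library, the treatment field of CTL 93 and of LIP 96 reads anti-CD29, and the field of both libraries numbered 97 reads anti-CD30. The libraries are named here by group and by the number in their label. The labels do not say whether a number stands for 1 mouse, so the p-values measure only the spread between these libraries.

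Chemokine receptors are seven-pass membrane proteins that couple to inhibitory G proteins and turn a gradient of secreted chemokine into directed migration. A CD4+ T cell carries a set of them that depends on its state, so that a naive cell circulates through lymphoid organs and an effector cell enters an inflamed tissue. Ccr4 and Ccr8 are known from type 2 helper, regulatory and skin-homing T cells, Cxcr3 from type 1 helper cells, Ccr6 from type 17 helper cells, Cxcr5 from follicular helper cells and Ccr9 from cells bound for the small intestine. Cxcr4 directs cells toward bone marrow and lymphoid niches, Ccr2 guides monocytes and memory T cells to inflammation, and Cx3cr1 marks cytotoxic and other highly differentiated T cells.

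The libraries held between 6249018 and 7845676 counts on day 0 and between 8691699 and 12866718 on day 2. Levels are given as CPM, a count scaled to the size of its library. A gene without counts could still have had up to 3 by counting error alone, which was worth 0.268 to 0.451 CPM. Cd4 was read at 421 to 643 CPM and Cd8a at 0.105 to 2.24 CPM, so the libraries carried the RNA of their labelled cell type. LIP 90 of day 2 stood apart from the other LIP libraries of day 2, with a chi-square of 34.8 to 43.5 per gene. All other pairs within a group were at 2.82 to 11.9. By that measure CTL 94 of day 0 did not stand apart. Its pairs were at 5.00 and 11.9, and those of CTL 89 at 5.79 and 11.9. CTL 94 held 1103 CPM of immediate early genes, and CTL 88 and CTL 89 held 2086 and 1977. Its level lay within the 907 to 1134 CPM of the LIP libraries of day 0. Values without LIP 90 or without CTL 94 are given where leaving it out changed a call or moved a called value by over 1.5 times. Because the RNA came from bulk samples, fewer cells of a type and less RNA per cell cannot be told apart.

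On GRCm39, 6 of the 9 receptor genes lie on chromosome 9. Cx3cr1 (chr9:119877749-119898945, minus strand) and Ccr8 (chr9:119921180-119924263, plus strand) are 22.2 kb apart, and Ccr9 (chr9:123507181-123613395, plus strand) and Ccr2 (chr9:123901982-123913594, plus strand) are 289 kb apart. Ccr4 lies at chr9:114319384-114333984 (minus strand) and Cxcr5 at chr9:44423083-44473174 (minus strand). The others are Cxcr4 at chr1:128515936-128520044 (minus strand), Ccr6 at chr17:8454869-8475973 (plus strand) and Cxcr3 at chrX:100775141-100777875 (minus strand). Exons of Cxcr5 share 118 bp with Bcl9l on the opposite strand, which held 8611 counts over the 12 libraries. Exons of Ccr9 share 592 bp with Gm17200 on the same strand, which held 64 counts, and 1932 bp with Gm17021 on the opposite strand, which held 48 counts. Exons of Ccr6 share 1145 bp with Gm33799 on the opposite strand, which has no counts matched to it here, so the low counts of Ccr6 are uncertain in the same way. Shorter stretches are shared by Ccr9 with Slc6a20a (434 bp) and by Cx3cr1 with Gm33858 (78 bp), both on the opposite strand and with 3 and 2 counts. The library kit marks strand, but the strand setting of the counting is not given in the sources used here, so reads in such shared stretches are uncertain.

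Ccr4, Ccr8 and Cxcr4 are the receptors whose share of the receptor RNA moved most between the days. The 250 bases before the start of the canonical transcript of each are shown here, 5′ to 3′ on the strand of the gene, from GRCm39. Capitals mark matches, on either strand, to 3 short letter patterns known from factors of T cell activation and quiescence: GGAAA, the core bound by NFAT factors, TGANTCA, bound by AP-1 factors, and CACCC, bound by KLF factors.
Ccr4, chr9:114325631-114325880, minus strand: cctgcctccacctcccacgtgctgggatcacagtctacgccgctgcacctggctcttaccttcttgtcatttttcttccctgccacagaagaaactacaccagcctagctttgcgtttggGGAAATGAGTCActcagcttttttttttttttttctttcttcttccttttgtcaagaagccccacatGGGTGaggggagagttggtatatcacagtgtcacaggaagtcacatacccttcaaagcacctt
Ccr8, chr9:119920930-119921179, plus strand: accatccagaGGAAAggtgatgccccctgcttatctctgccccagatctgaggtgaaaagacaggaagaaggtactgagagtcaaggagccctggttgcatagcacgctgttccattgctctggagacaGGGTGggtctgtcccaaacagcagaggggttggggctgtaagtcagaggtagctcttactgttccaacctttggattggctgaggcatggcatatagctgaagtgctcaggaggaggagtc
Cxcr4, chr1:128520045-128520294, minus strand: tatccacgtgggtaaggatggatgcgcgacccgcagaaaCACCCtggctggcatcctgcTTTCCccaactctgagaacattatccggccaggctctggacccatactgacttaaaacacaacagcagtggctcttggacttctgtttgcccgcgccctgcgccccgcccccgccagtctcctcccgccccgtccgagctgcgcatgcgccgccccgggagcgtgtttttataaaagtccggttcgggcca
In the Ccr4 window a GGAAA match is followed directly by a TGANTCA match. Among the windows of the 9 receptors, 7 held GGAAA, 5 held CACCC, and that of Ccr4 alone held TGANTCA. Of the 21770 windows of the same length before all protein-coding genes, 58.0% held GGAAA, 52.9% CACCC and 6.17% TGANTCA. A match describes the letters only. The Cxcr4 window overlaps an exon of Gm57160 on the opposite strand. The Ccr4 window lies within the Ccr4 gene as placed above, because the gene record starts farther upstream than its canonical transcript.

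The study lists qPCR primers for Ccr6 and Cx3cr1, the receptors with the fewest reads of the 9. These primers are shown because they fix the part of each RNA that such an assay reads.
Ccr6 forward, chr17:8475146-8475167, plus strand: atgcggtcaactttaactgtgg
Ccr6 reverse, chr17:8475218-8475238, minus strand: cccggaaagatttggttgcct
Cx3cr1 forward, chr9:119881340-119881361, minus strand: gagtatgacgattctgctgagg
Cx3cr1 reverse, chr9:119881260-119881280, plus strand: cagaccgaacgtgaagacgag
Both Ccr6 primers lie in coding exon 3 and span 93 bp, and both Cx3cr1 primers lie in coding exon 2 and span 102 bp. Each pair therefore sits within 1 exon.

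The comparison of day 2 with day 0 asks how culture with stimulation altered the receptors in each group of mice. Of the 9 receptors, Ccr4 and Ccr8 rose and Ccr2, Ccr6, Ccr9, Cxcr3, Cxcr4 and Cxcr5 fell, alike in both groups of mice. Cx3cr1 did not pass the test in either group. A gene was called at an adjusted p under 0.05, from the quasi-likelihood test of edgeR with Benjamini-Hochberg adjustment over all 15475 genes tested. The change was broad. In CTL cells 69% of all genes tested were called (35.3% higher and 33.7% lower), and in LIP cells 71.8% (36.6% higher and 35.2% lower), so 8 of 9 receptors is to be read against that. Of the 8, Ccr6 passed the filter on low counts only through day 0, where it was high. Its call was thus favoured by the filter and is no support for a fall. All 8 calls in each group held when any library was left out in turn. Culture, stimulation and time changed together between the days, and the libraries of the days carry different numbers within a group, so these cannot be told apart.

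Ccr4, the receptor for Ccl17 and Ccl22, was read on day 0 at 22.3, 11.7 and 37.4 CPM in CTL 88, 89 and 94, and at 24.6, 30.1 and 36.0 CPM in LIP 92, 93 and 94. After culture it stood at 374, 413 and 487 CPM in CTL 92, 93 and 97, and at 346, 267 and 288 CPM in LIP 90, 96 and 97. Every library of day 2 was above every library of day 0, and every CTL library of day 2 was above every LIP library of that day. Ccr4 rose 17.9-fold in CTL cells (log2 fold change 4.16, SE 0.31, edgeR adjusted p = 6.04e-08) and 9.92-fold in LIP cells (3.31, SE 0.29, adjusted p = 3.15e-07).

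Ccr8, the receptor for Ccl1, was nearly silent in the uncultured cells. It held 10, 9 and 16 counts in the CTL libraries 88, 89 and 94 of day 0 and 14, 11 and 18 counts in the LIP libraries 92, 93 and 94, which is 1.08 to 2.40 CPM. After culture it reached 58.8, 44.5 and 31.3 CPM in CTL 92, 93 and 97, and 35.8, 57.6 and 45.8 CPM in LIP 90, 96 and 97. The groups overlapped widely on day 2. Ccr8 rose 28.6-fold in CTL cells (log2 fold change 4.84, SE 0.31, edgeR adjusted p = 1.87e-08) and 23.5-fold in LIP cells (4.55, SE 0.30, adjusted p = 2.14e-08).

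Ccr9, the gut-homing receptor for Ccl25, had even levels on day 0, at 35.2, 35 and 30.6 CPM in CTL 88, 89 and 94 and 33.0, 36.7 and 36.5 CPM in LIP 92, 93 and 94. By day 2 it was down to 2.85, 1.79 and 2.04 CPM in CTL 92, 93 and 97 and to 1.70, 4.20 and 2.72 CPM in LIP 90, 96 and 97. It fell by 3.90 on the log2 scale in CTL cells (SE 0.24, edgeR adjusted p = 1.33e-08) and by 3.62 in LIP cells (SE 0.23, adjusted p = 1.53e-08).

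Cxcr4, the receptor for Cxcl12, was the most abundant of the 9 in uncultured cells. Its levels were 134, 110.5 and 188 CPM in CTL 88, 89 and 94, and 110.2, 83.8 and 96.4 CPM in LIP 92, 93 and 94. On day 2 it was read at 24.5, 20.6 and 14.4 CPM in CTL 92, 93 and 97 and at 18.9, 43.7 and 39.2 CPM in LIP 90, 96 and 97. The LIP libraries thus lay below the CTL libraries on day 0, while on day 2 LIP 96 and LIP 97 lay above all CTL libraries and LIP 90 among them. Cxcr4 fell by 2.86 on the log2 scale in CTL cells (SE 0.29, edgeR adjusted p = 1.38e-06) and by 1.52 in LIP cells (SE 0.28, adjusted p = 0.000253).

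Ccr2, the receptor for Ccl2, was read on day 0 at 47.1, 26.8 and 68.4 CPM in CTL 88, 89 and 94 and at 59.8, 75.4 and 81.9 CPM in LIP 92, 93 and 94. In cultured cells it stood at 10.7, 7.27 and 5.44 CPM in CTL 92, 93 and 97 and at 7.51, 21.7 and 11.8 CPM in LIP 90, 96 and 97. It fell by 2.60 on the log2 scale in CTL cells (SE 0.39, edgeR adjusted p = 5.02e-05) and by 2.40 in LIP cells (SE 0.37, adjusted p = 5.56e-05).

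Cxcr3, the receptor for the interferon-induced chemokines Cxcl9, Cxcl10 and Cxcl11, was read on day 0 at 33.2, 17.2 and 39.5 CPM in CTL 88, 89 and 94 and at 34.1, 35.7 and 49.7 CPM in LIP 92, 93 and 94. On day 2 its levels were 8.12, 9.30 and 5.67 CPM in CTL 92, 93 and 97 and 9.83, 6.07 and 4.14 CPM in LIP 90, 96 and 97. It fell by 1.96 on the log2 scale in CTL cells (SE 0.33, edgeR adjusted p = 0.000123) and by 2.55 in LIP cells (SE 0.33, adjusted p = 1.06e-05). CTL 89 held the lowest level of Ccr2, of Ccr4 and of Cxcr3 among the libraries of day 0.

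Cxcr5, the receptor for Cxcl13 that leads follicular helper cells and B cells into follicles, was at 11.1, 11.4 and 9.85 CPM in CTL 88, 89 and 94 and at 12.4, 11.0 and 14.1 CPM in LIP 92, 93 and 94. By day 2 it was at 2.32, 3.10 and 3.51 CPM in CTL 92, 93 and 97 and at 0.894, 7.10 and 5.95 CPM in LIP 90, 96 and 97. The LIP libraries of day 2 were the widest spread of any group, with LIP 90 lowest of all 12 libraries. Cxcr5 fell by 1.86 on the log2 scale in CTL cells (SE 0.46, edgeR adjusted p = 0.00267) and by 1.45 in LIP cells (SE 0.43, adjusted p = 0.00862). Without LIP 90 it fell by 0.92 in LIP cells (edgeR adjusted p = 0.00106).

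Ccr6, the receptor for Ccl20, was scarce on day 0 and close to the limit of detection on day 2. It held 13, 11 and 21 counts in CTL 88, 89 and 94 and 21, 34 and 44 counts in LIP 92, 93 and 94. After culture it held 4, 4 and 0 counts in CTL 92, 93 and 97 and 2, 2 and 0 counts in LIP 90, 96 and 97, so that the LIP libraries were all under 3 counts. It was too low on day 2 to be tested there, and it passed the filter on low counts through day 0, where it was high. The calls given next, from the fit of both days, are therefore no support for a fall. By the fit of both days it fell by 2.68 on the log2 scale in CTL cells (SE 0.64, edgeR adjusted p = 0.00206) and by 4.93 in LIP cells (SE 0.66, adjusted p = 1.59e-05), and with so few counts the size of the fall is loosely known, with 95% confidence intervals from -4.06 to -1.30 and from -6.35 to -3.51.

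Cx3cr1, the receptor for the membrane-bound chemokine Cx3cl1, had at most 15 counts in any library. The counts were 6, 0 and 5 in CTL 88, 89 and 94, 12, 12 and 6 in LIP 92, 93 and 94, 15, 4 and 7 in CTL 92, 93 and 97, and, among the LIP libraries of day 2, 1 in LIP 90, 9 in LIP 96 and 2 in LIP 97. The groups and days overlapped. The log2 change from day 0 to day 2 was 0.94 (SE 0.81, edgeR adjusted p = 0.317) in CTL cells and -1.73 (SE 0.78, adjusted p = 0.0604) in LIP cells. In LIP cells edgeR called the fall without LIP 96 (-2.97, adjusted p = 0.0168) and without CTL 89 (-1.73, adjusted p = 0.0339), but not without LIP 90 (-1.21, adjusted p = 0.179). It also called it with total counts as the only scaling (-2.08, adjusted p = 0.0275) and without a filter on low counts (-1.70, adjusted p = 0.0245). Its call thus depends on these choices. Cx3cr1 passed the filter of the 12-library fit through LIP 92, LIP 93 and CTL 92, where it was high. The values with the filter are therefore no support for a fall.

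**Figure D1:**
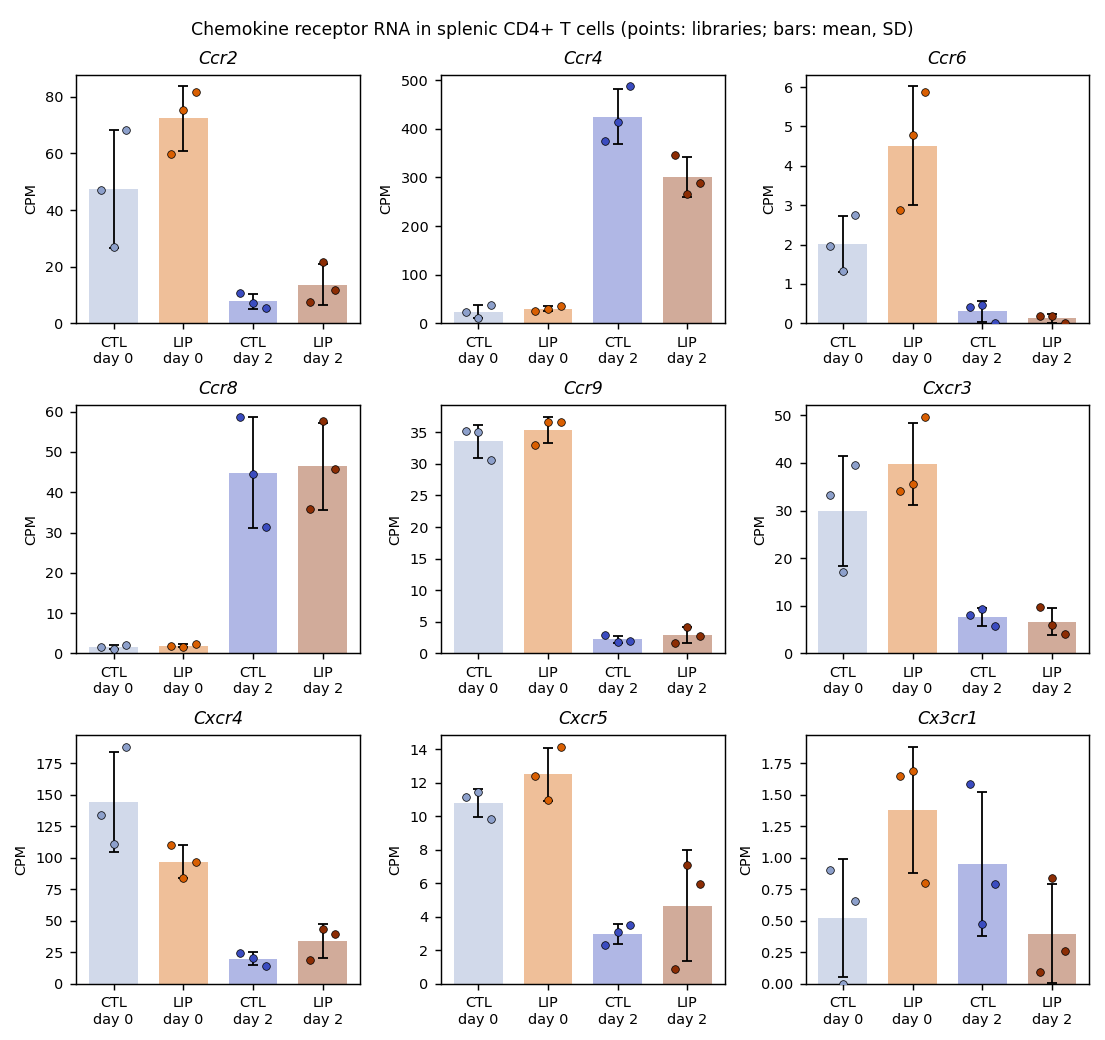
Level of each of the 9 receptors, in CPM (vertical axis, a scale of its own for each receptor), in the 4 groups of 3 libraries. Points are libraries, bars are means and the lines are SD. Ccr4 and Ccr8 stand higher on day 2, Cx3cr1 overlaps between the days, and the others stand lower on day 2.

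**Figure D2:**
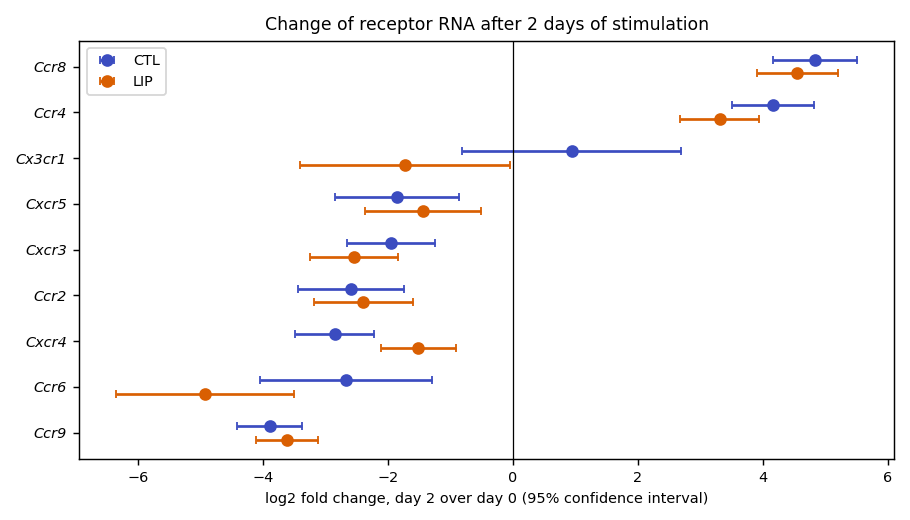
Log2 fold change from day 0 to day 2 of each receptor in the CTL and the LIP group (points) with 95% confidence intervals from edgeR (lines). Ccr8 and Ccr4 lie to the right of 0, 6 receptors lie to the left, and the Cx3cr1 intervals reach from -0.81 to 2.69 in CTL and from -3.41 to -0.05 in LIP.

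Levels can be compared between receptors only per length, and here CPM was divided by the kilobases of merged exons of each gene. On day 0, Cxcr4 came first with 79.1 ± 21.8 CPM per kb (SD, n = 3) in CTL cells and 53.1 ± 7.22 in LIP cells, and Cxcr3 came second with 17.3 ± 6.65 and 23.0 ± 4.97. The ranges of Cxcr4 and Cxcr3 did not overlap in either group, while Cxcr3 overlapped Ccr4 in CTL cells. Ccr4 and Ccr2 followed and overlapped each other, at 7.69 ± 4.19 and 7.01 ± 3.07 CPM per kb in CTL cells and 9.77 ± 1.84 and 10.7 ± 1.68 in LIP cells. Cxcr5 and Ccr9 were next and overlapped as well, with 3.24 ± 0.251 and 3.17 ± 0.245 CPM per kb in CTL cells. Divided by the longest transcript, their order turned, with 3.79 for Cxcr5 and 5.83 for Ccr9 in CTL cells and 4.39 and 6.15 in LIP cells. Ccr8 and Ccr6 overlapped too, with 1.07 ± 0.349 and 0.821 ± 0.294 CPM per kb in CTL cells, and with the longest transcript their order in CTL cells turned as well, at 1.07 and 1.14. In LIP cells Ccr6 came before Ccr8, at 1.84 ± 0.615 and 1.33 ± 0.292 CPM per kb. Cx3cr1 came last, with 0.112 ± 0.10 CPM per kb in CTL cells and 0.296 ± 0.108 in LIP cells.

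By day 2 the order had been rearranged at the top. Ccr4 led with 137 ± 18.5 CPM per kb (SD, n = 3) in CTL cells and 97 ± 13.2 in LIP cells. Ccr8, which had been near the bottom, came second with 30.6 ± 9.37 and 31.6 ± 7.42, and Cxcr4 followed with 10.9 ± 2.79 and 18.6 ± 7.24. These 3 did not overlap each other in either group. The 4 receptors after Cxcr4 kept the order Cxcr3, Ccr2, Cxcr5 and Ccr9, with ranges that overlapped from one to the next throughout in LIP cells and between Ccr2 and Cxcr5 in CTL cells. Cx3cr1 and Ccr6 were last and overlapped. In CTL cells Ccr9 and Cx3cr1 overlapped too, at 0.210 and 0.204 CPM per kb, and their order turned without CTL 93 and without CTL 97. Without CTL 92, the order of Ccr2 and Cxcr5 in CTL cells turned instead, at 0.940 and 0.992 CPM per kb. Whichever library was left out, 7 of the 9 ranks in CTL cells of day 2 were kept.

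Taken as a share of the summed per-length level of the 9 receptors, Cxcr4 made up 66.6% ± 3.37 (SD, n = 3) in CTL and 49.7% ± 6.18 in LIP on day 0, and 5.89% ± 1.65 and 12.0% ± 4.57 on day 2. Ccr4 went from 6.10% ± 1.68 to 73.8% ± 7.79 in CTL cells and from 9.11% ± 1.43 to 62.7% ± 9.28 in LIP cells. Ccr8 went from 0.886% ± 0.030 to 16.5% ± 5.44 and from 1.24% ± 0.158 to 20.4% ± 4.41. On day 0 the Cxcr4 share in the LIP libraries (45.1% to 56.7%) lay below that in the CTL libraries (63.6% to 70.3%). The share of Cxcr3 lay above it, at 18.5% to 24.5% against 11.5% to 16.6%, as did that of Ccr2, at 8.29% to 11.4% against 4.59% to 6.45%. Those of Ccr6 and Ccr8 lay above too. As the shares add up to a whole, a lower share of Cxcr4 raises the others. These shares are given as a description, with no test, and depend on the exon length used.

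**Figure D3:**
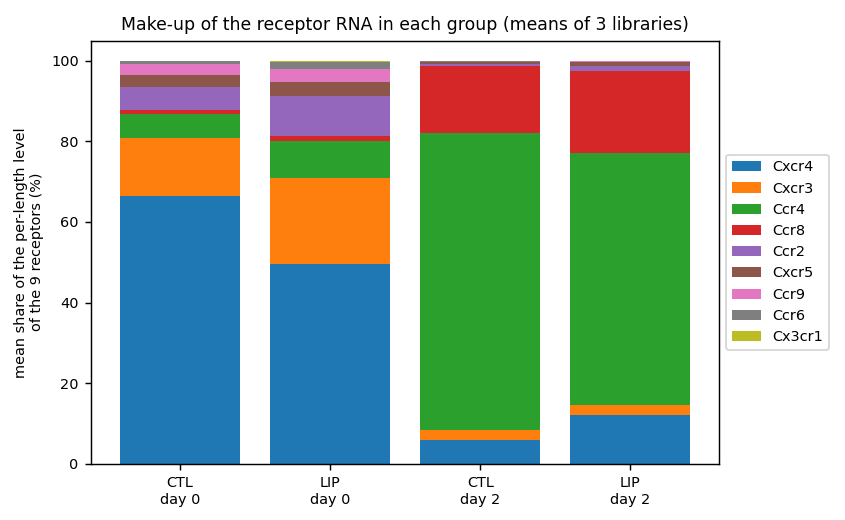
Mean share (percent, vertical axis) of each receptor in the summed per-length level of the 9 receptors, for the 4 groups of 3 libraries. Cxcr4 fills 66.6% (CTL) and 49.7% (LIP) of the bar on day 0, and Ccr4 fills 73.8% and 62.7% on day 2.

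The comparison of LIP with CTL on day 0 asks whether periodontitis altered the receptors in cells that had not been cultured. Of the 9 receptors, 8 had enough counts to be tested, and edgeR called 0 of them at an adjusted p under 0.05, where 0.427% of the 14064 genes tested were called. DESeq2 called 0 receptors as well. At an unadjusted p under 0.05 there were 3 receptors, Ccr6, Cxcr4 and Ccr2, against 13.9% of all genes. By the rule that the study applied, an unadjusted p under 0.05 with a log2 fold change beyond 1 in either direction, Ccr6 alone passed, where 0.931% of all genes passed.

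Ccr6 was read at 1.95, 1.32 and 2.76 CPM in CTL 88, 89 and 94 and at 2.89, 4.77 and 5.87 CPM in LIP 92, 93 and 94. The groups did not overlap, by a gap of 0.13 CPM between LIP 92 and CTL 94, and 9.28% of all genes tested were higher in every LIP library. The log2 fold change was 1.17 (SE 0.35, edgeR adjusted p = 0.177). Cxcr4 was lower in every LIP library, by 0.29 CPM at the nearest point between CTL 89 and LIP 92, as were 9.83% of all genes. Scaled by total counts alone, LIP 92 (123 CPM) lay above CTL 89 (117 CPM), so that the groups overlapped. Its log2 fold change was -0.57 (SE 0.16, edgeR adjusted p = 0.165). For Ccr2 the log2 fold change was 0.62 (SE 0.25, edgeR adjusted p = 0.293), and LIP 92 lay between CTL 88 and CTL 94.

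The other tested receptors had log2 differences of 0.42 for Cxcr3 (95% confidence interval -0.11 to 0.95), 0.36 for Ccr4 (-0.31 to 1.02), 0.34 for Ccr8 (-0.48 to 1.15), 0.22 for Cxcr5 (-0.12 to 0.55) and 0.08 for Ccr9 (-0.13 to 0.30). The intervals of Ccr4 and Ccr8 reach past a doubling in LIP, whereas that of Ccr9 is narrow. Cx3cr1 was left untested on day 0, and its LIP counts of 12, 12 and 6 stood beside CTL counts of 6, 0 and 5.

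The calls depended on the filter and on the CTL libraries of day 0. Without a filter on low counts, edgeR called Ccr2 (0.63, adjusted p = 6.5e-08), Cxcr3 (0.43, adjusted p = 0.0119) and Ccr6 (1.18, adjusted p = 0.0157) higher in LIP. It called Cxcr4 lower (-0.56, adjusted p = 2.19e-08), and 645 genes in the whole table. The fits that follow keep the filter. Without CTL 94, edgeR called Ccr2 (log2 fold change 0.99, adjusted p = 0.00952), Ccr4 (0.87, adjusted p = 0.039) and Ccr6 (1.48, adjusted p = 0.0486), all higher in LIP, and 658 genes in place of 60 in the whole table. In that fit Cxcr4 shrank to -0.33 (adjusted p = 0.107). Without CTL 89, edgeR called Cxcr4 instead (-0.74, adjusted p = 0.0292), and 96 genes, while Ccr2 shrank to 0.32 (adjusted p = 0.389), Ccr4 to 0.0092 (adjusted p = 0.99) and Cxcr3 to 0.13 (adjusted p = 0.774).

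Markers of cell state and of other cells were read in the same libraries of day 0. The summed level of 6 regulatory T cell genes (Foxp3, Il2ra, Ikzf2, Ctla4, Tnfrsf18 and Lrrc32) was 328 to 467 CPM in CTL and 479 to 514 CPM in LIP (exact permutation test, two-sided p = 0.1, the smallest that 3 against 3 libraries allow). Within it, the mean of Ikzf2 was 171 CPM in CTL and 238 CPM in LIP, and that of Ctla4 was 46.2 and 39.2 CPM. The sum of 6 activation genes was 546 to 707 CPM in CTL and 473 to 493 CPM in LIP (exact permutation p = 0.1), with 3 of the 6 means higher and 3 lower in LIP. Of these, Cd69 was called lower in LIP (log2 fold change -0.90, edgeR adjusted p = 0.0375), with means of 299 and 160 CPM, whereas the mean of Il2ra, which stands in both lists, was 82.2 CPM in CTL and 103 CPM in LIP. The sum of 6 naive T cell genes was 3379 to 3793 CPM in CTL and 3119 to 3397 CPM in LIP (exact permutation p = 0.3), with 0 of the 6 means higher and 6 lower in LIP. Of 10 immediate early genes, Fos, Fosb and Jun were called lower in LIP, and the sum of the 10 was 1103 to 2086 CPM in CTL and 907 to 1134 CPM in LIP (exact permutation p = 0.2). The means of all 10 were lower in LIP. Cxcr4 was likewise lower in every LIP library, and among the LIP libraries both it and this sum were highest in LIP 92 and lowest in LIP 93, whereas among the CTL libraries Cxcr4 was highest in CTL 94, which had the lowest immediate early gene level. The sum of 12 myeloid genes was 31.7, 24.5 and 41.2 CPM in CTL 88, 89 and 94 and 34.7, 33.1 and 42.8 CPM in LIP 92, 93 and 94 (exact permutation p = 0.4), with 8 of the 12 means higher in LIP. Ccr2 had the same order among the CTL libraries and was also highest in LIP 94. However, LIP 92 lay above LIP 93 in the myeloid sum and below it in Ccr2. The sum of 8 NK cell genes was 71.6 to 87.1 CPM in CTL and 69.9 to 86.7 CPM in LIP (exact permutation p = 0.7). Of the 8 means, 6 were higher and 1 lower in LIP. The sum of 10 B cell genes was 12.2, 9.13 and 16.5 CPM in CTL 88, 89 and 94. In LIP 92, 93 and 94 it was 12.2, 13.6 and 14.3 CPM (exact permutation p = 0.7). Within each group this was the order of Ccr2. The part of these in the receptor values was not tested.

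The comparison on day 2 asks the same of the stimulated cells. Of the 9 receptors, 7 could be tested, without Ccr6 and Cx3cr1. Again edgeR called 0 of them, as it called 0% of the 14041 genes tested, and DESeq2 called 0 receptors too. At an unadjusted p under 0.05 there were Ccr4 and Cxcr4, against 16.5% of all genes, and 0 receptors passed the rule of the study, against 3.71%. Ccr4 was lower in every LIP library, as were 10.5% of all genes, with a log2 fold change of -0.51 (SE 0.15, edgeR adjusted p = 0.171). Cxcr4 had a log2 fold change of 0.76 (SE 0.32, edgeR adjusted p = 0.282), and LIP 90 lay between the CTL libraries. For Ccr2 it was 0.80 (95% confidence interval -0.11 to 1.70), for Cxcr5 0.62 (-0.77 to 2.01), for Ccr9 0.35 (-0.53 to 1.24), for Cxcr3 -0.20 (-0.94 to 0.54) and for Ccr8 0.04 (-0.53 to 0.60).

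LIP 90 decided the calls of day 2. Without it, edgeR called 4 of the 7 receptors, Ccr2 (log2 fold change 1.12, adjusted p = 0.0426), Cxcr4 (1.08, adjusted p = 0.00776) and Cxcr5 (1.15, adjusted p = 0.0264) higher in LIP and Ccr4 (-0.60, adjusted p = 0.0178) lower, and 2014 genes in the whole table. In that fit the LIP group consisted of LIP 96 and LIP 97 only. Without LIP 96 instead, edgeR called 0 receptors, and the log2 fold change shrank to 0.30 for Ccr2 (adjusted p = 0.814), 0.16 for Cxcr5 (adjusted p = 0.965) and 0.55 for Cxcr4 (adjusted p = 0.631).

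**Figure D4:**
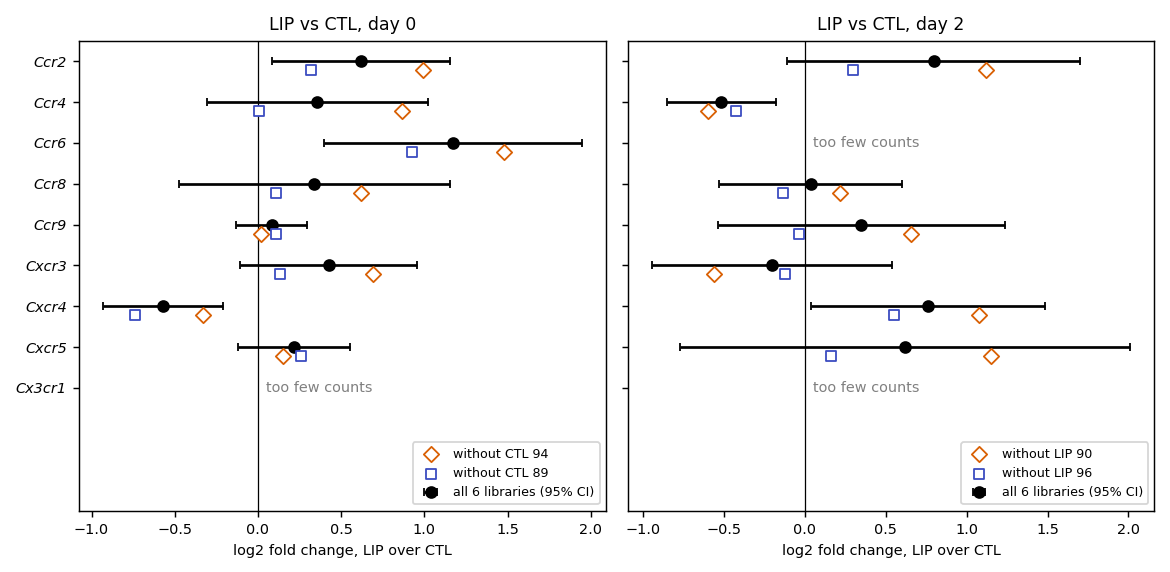
Log2 fold change of LIP over CTL (horizontal axis) for each receptor (left, day 0 libraries; right, day 2 libraries), with 95% confidence intervals from all 6 libraries (filled points), the value without CTL 94 or without LIP 90 (open diamonds) and the value without CTL 89 or without LIP 96 (open squares). Ccr4 on day 0 moved from 0.36 to 0.87 without CTL 94 and to 0.0092 without CTL 89, and Cxcr5 on day 2 moved from 0.62 to 1.15 without LIP 90 and to 0.16 without LIP 96.

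Genes listed as markers of other cells were read on day 2 as well. The summed level of 10 B cell genes (among them Cd79a, Ms4a1, Pax5 and Ebf1) was 5.80, 6.32 and 33.3 CPM in CTL 92, 93 and 97 and 4.20, 52.7 and 51.3 CPM in LIP 90, 96 and 97, against 9.13 to 16.5 CPM on day 0. The mean of each of the 10 was higher in LIP than in CTL on day 2. Cxcr5, which B cells carry as well, was lowest in LIP 90 and highest in LIP 96, like that sum. Cxcr4 was high in LIP 96 and LIP 97 but lowest in CTL 97. Ccr2 was also lowest in CTL 97. The sum of 12 myeloid genes was 56.1 to 58.2 CPM in CTL and 62.7, 79.1 and 110 CPM in LIP 90, 96 and 97, with S100a8 and S100a9 at 0 in all libraries. The mean was higher in LIP for 6 of the 12 and lower for 4. Mpeg1 (2.03 to 7.37 CPM in CTL and 16.2 to 47.7 CPM in LIP) and Ly6c2 (0.227 to 1.58 and 3.40 to 10.7) stood higher in every LIP library, whereas the means of Cd68 and Cst3 were lower in LIP, and those of Lyz2, Itgam and Fcgr3 were at most 0.195 CPM in either group. The sum of 8 NK cell genes was 21.2 to 28.2 CPM in CTL and 25.1, 71.4 and 46.6 CPM in LIP 90, 96 and 97, with Klra8 at 0. The mean was higher in LIP for 5 of the 8 and lower for 2, with Klrk1 at 3.70 to 6.01 CPM in CTL and 10.6 to 30.5 CPM in LIP, Nkg7 at 5.44 to 13.7 and 3.22 to 6.63, and the means of Ncr1 and Klrb1c at most 0.249 CPM.

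Markers of T cell states were read on day 2 too, where edgeR called 0% of all genes. The summed level of 6 naive T cell genes was 1318 to 1343 CPM in CTL and 1417 to 1967 CPM in LIP (exact permutation test, two-sided p = 0.1), with 3 of the 6 means higher and 3 lower in LIP. Of the regulatory T cell genes, Foxp3 (35.9 to 42.2 CPM in CTL and 27.8 to 31.7 CPM in LIP, edgeR adjusted p = 0.168) and Ikzf2 (105.6 to 126 and 77.3 to 93.4 CPM, adjusted p = 0.15) were lower in every LIP library, as were Ccr4 and 10.5% of all genes, while the sum of the list overlapped between the groups, at 1779 to 2433 and 2108 to 2306 CPM. The sum of 6 activation genes was 5205 to 5452 CPM in CTL (exact permutation p = 0.6). In LIP 90, 96 and 97 it was 5953, 4264 and 4753 CPM, with 2 of the 6 means higher and 4 lower in LIP. The sum of 10 immediate early genes was 912 to 1183 CPM in CTL (exact permutation p = 0.3). In LIP 90, 96 and 97 it was 994, 1323 and 1440 CPM, with 7 of the 10 means higher and 3 lower in LIP. The part of these markers in the receptor values was not tested.

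**Figure D5:**
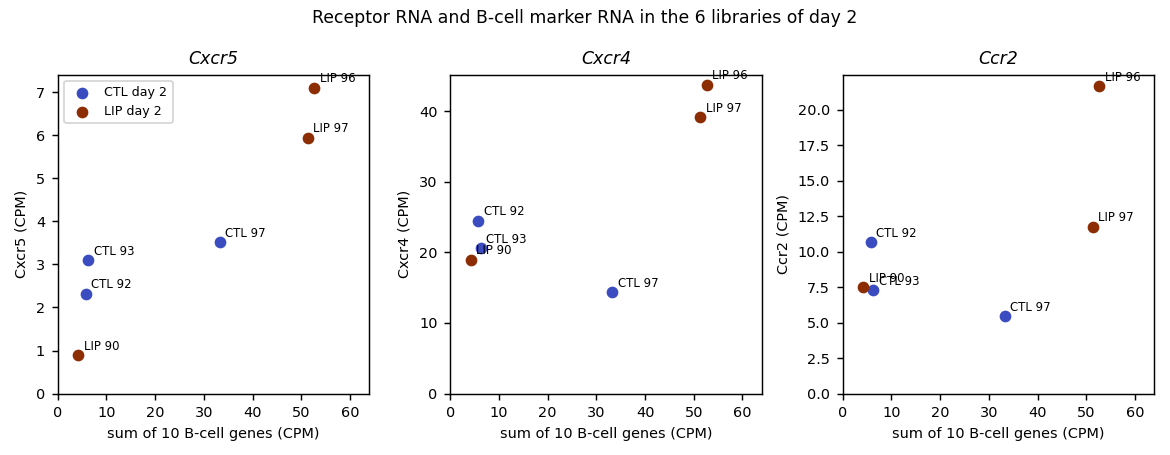
Level of Cxcr5, Cxcr4 and Ccr2 (CPM, vertical axes) against the summed level of 10 B cell genes (CPM, horizontal axes) in the 6 libraries of day 2, each point labelled with its library. LIP 96 and LIP 97 lie at 52.7 and 51.3 CPM of B cell genes with the highest levels of all 3 receptors, and CTL 97, at 33.3 CPM, has the lowest Cxcr4 and Ccr2.

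Whether the difference between LIP and CTL itself changed from day 0 to day 2 was tested as an interaction over all 12 libraries. Of the 9 receptors, edgeR called 0, where 0.0517% of 15475 genes were called, and at an unadjusted p under 0.05 there were 3, Cxcr4, Cx3cr1 and Ccr4, against 15.9% of all genes. For Cxcr4 the log2 fold change in LIP over CTL was 1.34 larger on day 2 than on day 0 (SE 0.39, edgeR adjusted p = 0.127). For Ccr4 the interaction was -0.85 (SE 0.39, edgeR adjusted p = 0.311) and for Cx3cr1 -2.67 (SE 1.13, edgeR adjusted p = 0.267). Cx3cr1 passed the filter through LIP 92, LIP 93 and CTL 92, where it was high, so its value is no support for an interaction. DESeq2, run on the same counts, called Cxcr4 (1.37, adjusted p = 0.0237). Without LIP 90, edgeR called Cxcr4 too (1.64, adjusted p = 0.00309). With both LIP 90 and CTL 94 left out, a choice made after the data were seen, it called Cxcr4 (1.40, adjusted p = 0.00295), Ccr4 (-1.48, adjusted p = 0.00636) and Cxcr5 (0.99, adjusted p = 0.05). Without CTL 94 alone, the Cxcr4 interaction was 1.09, and without LIP 93 its edgeR adjusted p was 0.291. Without LIP 96, the Cxcr5 interaction was -0.10 (edgeR adjusted p = 0.973).

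The ligands of these receptors were mostly absent from the cells. Of 25 chemokine genes listed, 8 were tested between the days, where 69% of all genes were called in CTL and 71.8% in LIP. Of the 8 genes, 4 rose and 3 fell in CTL as in LIP. Of these, Ccl3, Ccl4 and Ccl22 were too low on day 0 to be tested there, and Cxcl16 and Xcl1 were too low on day 2. Each passed the filter on low counts through the day on which it was high, so their calls and these counts are no support for a rise or a fall. Ccl3 and Ccl4, inflammatory chemokines of activated T cells and macrophages, were at 0.120 to 0.451 and 0 to 0.667 CPM on day 0 and at 3.46 to 14.1 and 6.69 to 14.4 CPM on day 2. Mif, a cytokine that can bind Cxcr4, rose by 3.70 (SE 0.36) in CTL cells and by 3.54 (SE 0.36) in LIP cells on the log2 scale. Ccl5, a chemokine of effector and memory T cells, fell by 2.47 (SE 0.50) and by 1.18 (SE 0.43). Both Mif and Ccl5 were called by edgeR in both groups. Cxcl16, the ligand of Cxcr6, had a mean of 2.73 CPM on day 0 and 0.782 CPM on day 2 in CTL cells and of 1.60 and 0.982 CPM in LIP cells. For Xcl1, the ligand of Xcr1, these means were 1.52 and 0.525 CPM in CTL cells and 2.52 and 0.378 CPM in LIP cells.

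Ccl22, a ligand of Ccr4, had 0 counts in all 6 libraries of day 0. On day 2 it was read at 0.527, 0.119 and 18.9 CPM in CTL 92, 93 and 97 and at 1.16, 18.6 and 16.7 CPM in LIP 90, 96 and 97. In LIP its mean on day 2 was 12.1 CPM, beside the 0.411 CPM that 3 counts were worth on day 0. That mean rested mostly on LIP 96 and LIP 97. These levels are a description, since Ccl22 passed the filter through day 2, where it was high. The libraries with the high values, CTL 97, LIP 96 and LIP 97, were those with the high B cell sum given above, and the part of other cells in the Ccl22 value was not tested. In CTL a higher level on day 2 rests on CTL 97 alone, since without it the mean of day 2 was 0.323 CPM, under the 0.402 CPM that 3 counts were worth on day 0. Without any 1 of the LIP libraries of day 2, the LIP mean was at least 8.92 CPM. Ccl17, the other ligand of Ccr4, stayed at 0 to 0.841 CPM. Ccl25, the ligand of Ccr9, was read at 20.7 to 29.2 CPM in all 12 libraries and fell by 0.31 on the log2 scale in LIP cells. Cxcl12, the ligand of Cxcr4, had 0 counts throughout, and Cxcl13, Cx3cl1, Cxcl9 and Cxcl11, ligands of Cxcr5, Cx3cr1 and Cxcr3, reached at most 0.227 CPM. Ccl20, the ligand of Ccr6, had 0 counts on day 0 and 0 to 1.37 CPM on day 2, and Ccl1, the ligand of Ccr8, stayed at 0 to 0.715 CPM. Ccl2, the ligand of Ccr2, had 0 counts in all libraries, and Cxcl10 was at 0.138 to 1.29 CPM.

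Of 18 other chemokine and migration receptors, 12 were tested between the days. In CTL cells 1 rose and 5 fell, where 69% of all genes were called, and in LIP cells 2 rose and 7 fell, where 71.8% were. The falls include Ccr3 and Ccr10 in both groups and Xcr1 in LIP cells, which were too low on day 2 to be tested there and passed the filter through day 0, where they were high, so these counts are no support for a fall of the list. S1pr1, which lets T cells leave lymphoid organs, fell by 5.21 on the log2 scale in CTL cells (SE 0.25, edgeR adjusted p = 1.62e-09) and by 4.68 in LIP cells (SE 0.24, adjusted p = 2.61e-09), from 378 to 621 CPM on day 0 to 10.6 to 20.4 CPM on day 2. Cxcr6 fell by 2.18 (SE 0.33) in CTL cells and fell by 2.66 (SE 0.33) in LIP cells. Ccr3 was read at 0.601 to 2.25 CPM on day 0 and at 0 to 0.238 CPM on day 2, under the worth of 3 counts in every library of that day. Ccrl2, an atypical receptor, rose by 2.38 (SE 0.52) in LIP cells. Ccr7, the lymph node homing receptor of naive cells, was not called in either group, at 281 to 375 CPM on day 0 and 282 to 573 CPM on day 2.

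Among 21 genes that carry the receptor signal, 20 were tested. In CTL cells 5 rose and 7 fell (median log2 fold change -0.03), and in LIP cells 7 rose and 6 fell (median 0.06). These counts are to be read against the 69% of all genes called in CTL cells and the 71.8% called in LIP cells. Pik3r5, the adaptor of the phosphoinositide kinase that chemokine receptors switch on, fell by 2.86 (SE 0.16) on the log2 scale in CTL cells and fell by 2.96 (SE 0.16) in LIP cells. Plcb2 and Dock2, a phospholipase and the exchange factor that drives Rac in migrating lymphocytes, fell by 1.44 (SE 0.11) and by 1.39 (SE 0.09) in CTL cells. Gnb1 and Gnb2, G protein β subunits, rose by 0.77 (SE 0.09) and 0.71 (SE 0.10) there.

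Among 16 genes of receptor desensitization and sulfation, 14 were tested. In CTL cells 6 rose and 6 fell (median log2 fold change -0.20), where 69% of all genes were called. In LIP cells 6 rose and 8 fell (median -0.47), where 71.8% of all genes were called. Rgs16 and Rgs1, which shorten G protein signals, rose by 4.89 (SE 0.31) and 2.21 (SE 0.16) in CTL cells and by 4.85 (SE 0.31) and 2.49 (SE 0.16) in LIP cells. Tpst1, which sulfates tyrosines of chemokine receptors, rose by 3.05 (SE 0.26) and 2.40 (SE 0.24). Rgs14 fell by 2.5 (SE 0.12) and by 1.87 (SE 0.12).

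Of 12 transcription factors that accompany these receptors in helper T cell lineages, all were tested. In CTL cells 3 rose and 5 fell (median log2 fold change -0.29), beside 69% of all genes called. In LIP cells 3 rose and 6 fell (median -0.78), beside 71.8% of all genes called. Irf4 rose by 6.06 (SE 0.19) and 6.19 (SE 0.19), Tbx21, the type 1 factor that accompanies Cxcr3, by 2.55 (SE 0.23) and 1.86 (SE 0.22), and Gata3, the type 2 factor, by 1.61 (SE 0.17) and 1.56 (SE 0.17). Thus Tbx21 rose between the days in which Cxcr3 fell. Klf2, which sustains S1pr1, fell by 2.80 (SE 0.24) and by 3.00 (SE 0.24). The interaction of group and day called 0 genes of these lists. Between LIP and CTL, edgeR called 0 genes of the 5 lists on either day.

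The pattern of each receptor over the 12 libraries was compared with that of all other tested genes by Pearson's r of log2 CPM, as a description. The nearest genes were E2f7 (r = 0.997) and Plk1 (0.996) for Ccr4, Rnf19b (0.997) and Twsg1 (0.997) for Ccr8, Ezh1 (0.997) and Pkd1 (0.996) for Ccr9, and Rnf125 (0.990) and Tsc22d2 (0.988) for Cxcr4. They were Mgat4a (0.978) and Cass4 (0.977) for Ccr2, St6galnac3 (0.984) and Myo1f (0.981) for Cxcr3, Gm28373 (0.989) and Mtfr1l (0.981) for Ccr6, and Tmem154 (0.977) and Hvcn1 (0.973) for Cxcr5. Cx3cr1 had the loosest match, with Ggh at 0.885 and Gm49364 at 0.838. All points share the split between the days, which most of these values reflect.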

How the data were processed

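The authors trimmed 150-bp paired-end reads (Trimmomatic 0.36 in the methods of the study, 0.38 in the submitters' processing notes), mapped them to GRCm39 with HISAT2 2.1.0 and deposited expected counts per gene from RSEM 1.3.0 with Bowtie2, without normalization. The annotation and the strand setting are not given in the sources used here. The deposited tables of each day also hold the authors' normalized values, fold changes and p-values, which were not used apart from 15174 gene symbols. Of their columns, 2 belong to libraries not among the labelled samples.

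Of the expected counts, 73267 values were not whole, and all were rounded. They were analysed in R 4.3.3 with edgeR 4.0.16 (filterByExpr, TMM, quasi-likelihood test, Benjamini-Hochberg adjustment over all genes tested). Each library took its group and day from its label. LIP was compared with CTL on the 6 libraries of each day, and the days and the interaction were tested in a single fit of the 12 libraries. CPM used TMM library sizes over 12 libraries, and lengths were merged exons of GENCODE release M39. The likeness of patterns used log2(CPM + 0.5). Sequences came from GRCm39 and from the primer list of the study. Scripts were tested on simulated data. Python 3.11.15 and matplotlib 3.10.9 drew the figures.

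The members and lists were chosen with earlier results of these data known. The genes named are the 9 receptors and, of each list and comparison, up to 6 called genes with the largest change. Some genes that this rule selects are not reported here. Ligands and receptors named with levels only were chosen after their values were seen. Alternatives were RLE and total-count scaling, DESeq2 1.42.0, no filter, at least 10 counts in every library, 1 fit of 12 libraries, the longest transcript as length, and leaving out each library.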

Additional observations from a re-analysis of the deposited data

How the results depend on the processing

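No paired analysis was run, because the groups share fewer than 2 library numbers on a day (94 on day 0, 97 on day 2), and the days share none within a group. The numbers 92 and 93 occur both in LIP on day 0 and in CTL on day 2. In LIP against CTL on day 0, the 60 genes called became 206 with DESeq2, 645 without a filter on low counts, 12 in a single fit of all libraries and 13 to 658 when 1 library was left out, and the receptors called went from 0 to 4 (Ccr2, Ccr6, Cxcr3 and Cxcr4) without a filter and 0 to 3 when 1 library was left out. On day 2, the 0 genes called became 489 with DESeq2, 662 without a filter, 775 in a single fit, 1 with total counts only or with at least 10 counts in every library, and 0 to 2014 when 1 library was left out, with 0 to 4 receptors. For the interaction, the 8 genes called became 97 with total counts only, 531 with DESeq2, 815 without a filter, 1682 with CTL 94 and LIP 90 both left out (chosen after seeing the data) and 1 to 1596 when 1 library was left out, with 1, 2 and 3 receptors called under DESeq2, no filter and the removal of both, and 0 to 1 otherwise. Ccr8 on day 2 was -0.054 with total counts only. Signs also turned when 1 library was left out for Ccr8 (-0.16 to 0.28), Ccr9 (-0.034 to 0.66) and Cxcr3 (-0.56 to 0.037) on day 2 and for the interaction of Ccr2 (-0.33 to 0.51), Ccr9 (-0.14 to 0.58) and Cxcr5 (-0.10 to 0.93). The cause was not tested. Total counts only shifted the median log2 fold change of all genes by -0.19 between the days in CTL, -0.36 in LIP and -0.17 in the interaction, and the share of calls that were higher went from 51.1% to 42.4%, 51% to 36.2% and 62.5% to 9.28%, and from 13.3% to 30.2% on day 0. The 8 receptors called between the days kept their direction under that scaling. With the longest transcript as length, 5 of 9 ranks of the CTL group and 7 of the LIP group on day 0 were kept. Ccr6 on day 2 was at or near the limit of 3 counts, and Cx3cr1 had at most 15 counts in a library, so that LIP against CTL was not tested with the filter in all 6 libraries for Ccr6 on day 2 or for Cx3cr1 on either day.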
